A study of Mus musculus with 6 samples.

Results

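The glucocorticoid-related genes described here are 8 named genes, Sgk1, Tsc22d3, Fkbp5, Per1, Klf9, Nr3c1, Hsd11b1 and Zbtb16, taken by symbol from the 54532 genes of the deposited table. Each symbol matched 1 gene. Sgk1 was picked because it differed between the groups in these same libraries, and the other genes because they are known targets or regulators of glucocorticoid signalling, so the differences of the 8 genes are given as a description with no test. The values that chose them are the FPKM of the 6 libraries (fragments per kilobase of gene, scaled to library size by the authors). Fits across the table used genes whose mean reached 1 FPKM. By that standard 7 of the 8 were measurable, each of them above 1 FPKM in every library, and Zbtb16 was not.

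RNA-seq was done on primary macrophages of wild-type (WT) mice. In 3 samples the cells received vehicle and in 3 they received rmMETRNL, named for the secreted protein METRNL (meteorin-like), for 6 h, and all 6 samples were then exposed to the fungus Candida albicans for 6 h. No library without the fungus was analysed here, so the contrast is between pretreatments and not the response to the fungus. The labels name no glucocorticoid among the agents, and they do not say from which tissue the macrophages came, at what age, or whether samples are separate animals or cultures, so the spread between them may be technical. The table heads its columns with the letters Wt and Wr and a number. The Wr columns were read as rmMETRNL from their letter r and the Wt columns as vehicle, and the direction of each difference below depends on it.

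Glucocorticoids are steroid hormones that enter the cell and bind the glucocorticoid receptor, which waits in the cytoplasm in a complex with heat shock proteins. The bound receptor moves to the nucleus and acts at response elements, inverted repeats of a short half-site, where it switches on genes that feed back on inflammation, while many cytokine genes are held down. In macrophages the hormone is known for this brake on inflammatory output, and for inducing Tsc22d3, Fkbp5, Per1, Klf9 and Sgk1 in many cell types. Several of these genes also answer to other signals, Sgk1 to serum and osmotic stress and Per1 to the circadian clock.

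The libraries held 13235001 to 18145733 reads (or read pairs), recovered from the FPKM values, with 18723 to 19613 genes detected in each. All 10 macrophage markers checked had a mean above 1 FPKM, with summed levels of 9632 to 10179 FPKM in vehicle and 9405 to 9689 FPKM in rmMETRNL libraries. The extraction text speaks of retinas, but of 8 retina markers 4, among them Crx, were at 0 in all libraries and the sum of the list reached 0.711 FPKM at most. Limma on log2(FPKM + 1) called 0 of 9867 tested genes (0%) at an adjusted p of 0.05, where the lowest adjusted p was 0.103. An unadjusted p under 0.05 was reached by 1448 of the 9867 genes, and limma voom on the recovered reads called 61 (0.618%).

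The 8 genes fell into 3 patterns. Sgk1, Hsd11b1, Klf9 and Tsc22d3 lay wholly above the vehicle range in the rmMETRNL libraries, Fkbp5 lay below it by a very small gap, and Per1, the receptor gene Nr3c1 and Zbtb16 overlapped between the groups. Over all tested genes, 10.9% lay wholly above and 10.6% wholly below, and since the genes were chosen with this contrast known nothing is read from their 4 and 1 of 7. The difference of Sgk1, 30.3% on the mean FPKM, was larger than those of Klf9 (12.3%) and Tsc22d3 (10.7%), and that of the weakly expressed Hsd11b1 was 41.9%.

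**Figure D1:**
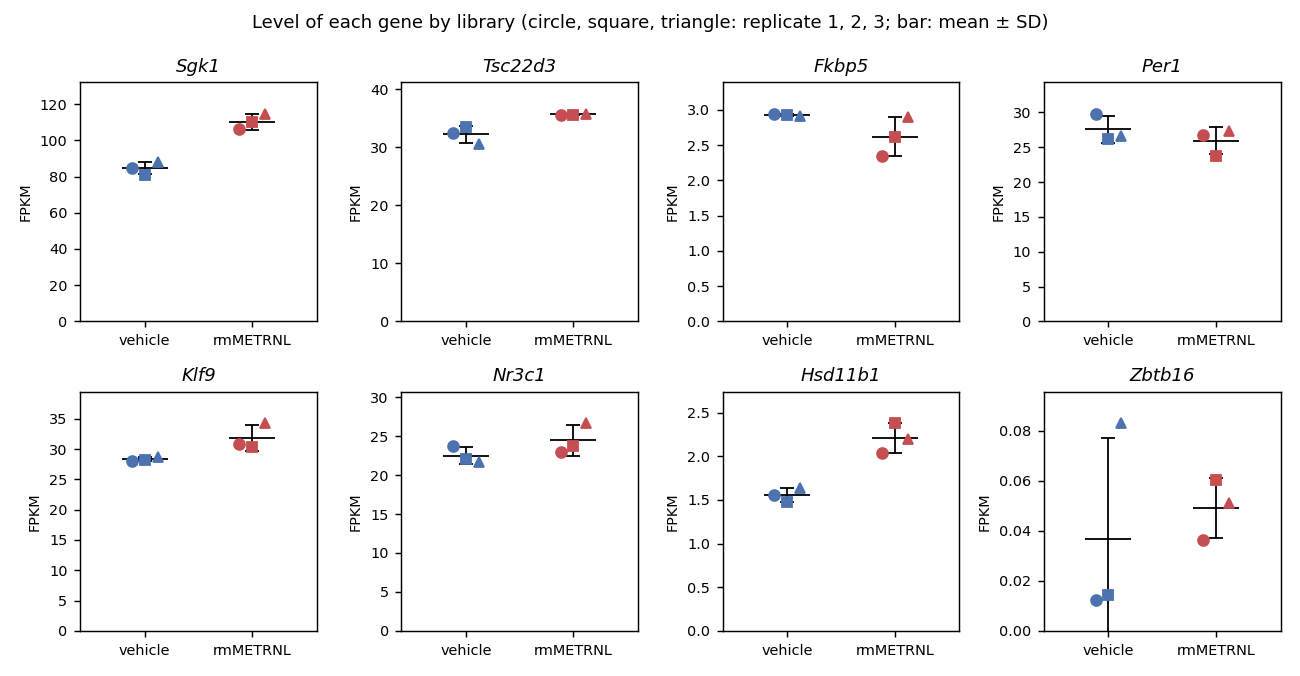
FPKM of the 8 genes in each of the 3 vehicle (blue) and 3 rmMETRNL (red) libraries, with the mean and SD of each group in black; each panel has its own axis from 0, at which the lower SD bar of Zbtb16 ends. Sgk1 stood at 81.0 to 87.9 FPKM after vehicle and 106 to 115 FPKM after rmMETRNL, whereas the groups of Per1, Nr3c1 and Zbtb16 overlapped.

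Sgk1 encodes the serum- and glucocorticoid-regulated kinase, an AGC kinase related to AKT that is switched on by mTORC2 and the kinase encoded by Pdpk1 and acts on ion transport and FOXO factors. The gene (ENSMUSG00000019970) lies on chromosome 10, 21882184 to 21999903, plus strand, in GRCm38. Its level was 84.9, 81.0 and 87.9 FPKM in vehicle libraries 1, 2 and 3 and 106, 110 and 115 FPKM in rmMETRNL libraries 1, 2 and 3. All 3 rmMETRNL libraries were above all 3 vehicle libraries, with a gap of 18.1 FPKM between the groups against an SD of 3.48 FPKM in vehicle (mean 84.6) and 4.38 FPKM in rmMETRNL (mean 110) libraries (n = 3 each). On the log2(FPKM + 1) scale, where changes of weakly expressed genes come out too small, the difference was 0.38 (SE 0.05). A larger positive difference was found for 59 (1.10%) of the 5382 genes whose mean reached 5 FPKM. At least 5308 reads stood behind each library's value, so counting error was near 1.37% of the level. Leaving out any library kept the difference between 0.35 and 0.41.

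GENCODE M21 lists 13 transcripts of Sgk1, and RefSeq gives it 6 start sites on GRCm38.p6. A value per gene does not tell them apart. The windows of 250 bases before to 50 bases after each start in RefSeq were searched for the full glucocorticoid response element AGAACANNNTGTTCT (N is any base, and the motif reads the same on both strands), its half-site AGAACA, which reads TGTTCT on the other strand, the E-box CACGTG, the cyclic AMP response element TGACGTCA, and the TATA box TATAAA, which reads TTTATA on the other strand. The full element holds 2 half-sites. It was found in 3 of 32851 windows (0.00913%), and 1 of the 3 belongs to Sgk1. The match, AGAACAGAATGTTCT, lies at chr10:21993701-21993715 on the plus strand, 189 bases before the fifth start site and 965 bases before the sixth and last. The sequences before these 2 start sites are shown, with the start sites just after the last base printed. The first holds the full element, and the other holds a TATA box that begins 11 bases before the last start site. A match is a description of letters, not evidence of binding here. Only these exact letters in these windows were searched, so a gene without a match may still have elements of other letters or elsewhere. Capitals mark matches to the motifs, and in the first sequence the E-box runs into a half-site.
Sgk1 before the fifth start site, chr10:21993640-21993889, plus strand, GRCm38.p6: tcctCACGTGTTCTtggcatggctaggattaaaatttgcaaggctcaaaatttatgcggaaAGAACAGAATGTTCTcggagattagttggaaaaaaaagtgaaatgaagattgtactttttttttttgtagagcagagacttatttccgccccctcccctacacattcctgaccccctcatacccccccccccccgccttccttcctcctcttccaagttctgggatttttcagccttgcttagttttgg
Sgk1 before the sixth start site, chr10:21994416-21994665, plus strand, GRCm38.p6: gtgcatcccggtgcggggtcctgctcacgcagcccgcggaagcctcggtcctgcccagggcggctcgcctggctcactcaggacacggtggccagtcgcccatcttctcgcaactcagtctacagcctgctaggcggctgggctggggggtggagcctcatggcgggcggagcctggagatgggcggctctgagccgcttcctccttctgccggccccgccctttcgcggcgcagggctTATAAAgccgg

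**Figure D2:**
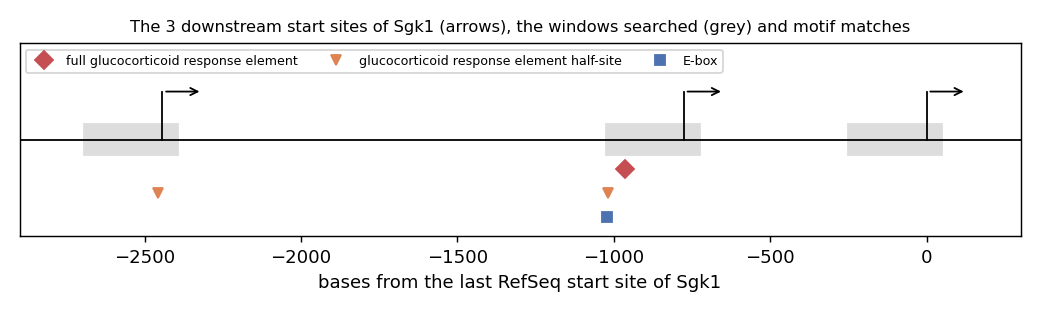
Map of the 3 downstream start sites of Sgk1 (arrows) by distance in bases from the last of them, with the windows searched in grey and motif matches below the line. The full element lies 965 bases before the last start site, inside the window of the start site before it, with the E-box and another half-site close by.

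The other genes with a RefSeq window were Tsc22d3, Fkbp5, Per1, Klf9 and Hsd11b1, 14 windows in all with the 6 of Sgk1. Half-sites occurred in 4 of the 14 windows against 19.0% of all windows, 3 of the 4 at Sgk1 and 1 at Tsc22d3. The E-box, which clock factors recognise, occurred in 3 of the 14, at Sgk1, Fkbp5 and Per1, against 7.15% of all windows. The cyclic AMP response element was in none of the 14 and in 1.79% of all windows. The TATA box was in 2 of the 14, beginning 28 bases before the fourth and 11 bases before the sixth start site of Sgk1, against 13.6% of all windows. The single window of Klf9 held none of the 5 motifs and is shown for comparison with Sgk1, since both genes were higher with rmMETRNL.
Klf9 before its start site, chr19:23140976-23141225, plus strand, GRCm38.p6: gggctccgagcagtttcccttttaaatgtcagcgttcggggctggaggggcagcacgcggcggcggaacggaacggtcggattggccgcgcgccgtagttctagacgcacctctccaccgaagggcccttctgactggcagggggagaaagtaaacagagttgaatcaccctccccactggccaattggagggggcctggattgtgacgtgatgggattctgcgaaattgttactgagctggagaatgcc

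Tsc22d3 encodes GILZ, a leucine zipper protein that binds NF-kappaB and AP-1 and carries part of the anti-inflammatory action of glucocorticoids. The gene (ENSMUSG00000031431) lies on chromosome X, 140539528 to 140600659, minus strand. It stood at 32.4, 33.6 and 30.6 FPKM in vehicle libraries and at 35.5, 35.6 and 35.8 FPKM in rmMETRNL libraries 1 to 3. The groups did not overlap, and the gap between them was 1.98 FPKM. The difference was 0.14 (SE 0.05) on the log2(FPKM + 1) scale. The rmMETRNL values differed among themselves by an SD of 0.398% of their mean. Counting error was 2.27% at the 1947 reads of vehicle library 2, the fewest of the 6 libraries. It was only a little smaller at the 2305 to 2424 reads of the rmMETRNL libraries, so their closeness is finer than the depth can resolve.

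Klf9 encodes a Krüppel-like transcription factor that is induced by glucocorticoids and damps their target genes in turn. The gene (ENSMUSG00000033863, chromosome 19, 23141226 to 23166911, plus strand) stood at 28.1, 28.2 and 28.7 FPKM after vehicle and at 30.8, 30.3 and 34.3 FPKM after rmMETRNL. The groups did not overlap, and rmMETRNL library 3 was the highest. The difference of 0.16 (SE 0.06) was 0.11 without that library.

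Fkbp5 encodes a co-chaperone that lowers the hormone affinity of the receptor, and is widely used as a readout of glucocorticoid action. The gene (ENSMUSG00000024222, chromosome 17, 28399094 to 28517527, minus strand) stood at 2.95, 2.92 and 2.92 FPKM after vehicle and at 2.34, 2.62 and 2.90 FPKM after rmMETRNL, so it did not go up with Sgk1. All rmMETRNL values were below all vehicle values, but rmMETRNL library 3 missed the vehicle range by 0.0190 FPKM only. With 345 to 503 reads per library the counting error was up to 5.38%, reached in rmMETRNL library 1. The vehicle libraries, with 370 to 503 reads, differed by 0.562% only, far less than their counting error. The difference of -0.12 (SE 0.08) was -0.07 without rmMETRNL library 1, and the groups overlapped after rescaling to TPM or quantile normalization.

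Per1, a repressor of the circadian clock that glucocorticoids induce within a short time, was not higher with rmMETRNL either. The gene (ENSMUSG00000020893, chromosome 11, 69095217 to 69109960, plus strand) stood at 29.9, 26.2 and 26.7 FPKM after vehicle and at 26.7, 23.7 and 27.3 FPKM after rmMETRNL. The groups overlapped, with vehicle library 1 the highest and rmMETRNL library 2 the lowest of the 6. The difference of -0.09 (SE 0.08) was -0.03 without either of these libraries.

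Nr3c1 encodes the glucocorticoid receptor. The gene (ENSMUSG00000024431, chromosome 18, 39410545 to 39491301, minus strand) stood at 23.8, 22.0 and 21.7 FPKM after vehicle and at 23.0, 23.7 and 26.7 FPKM after rmMETRNL. Vehicle library 1 lay above the lower 2 rmMETRNL libraries. The difference of 0.11 (SE 0.07) was 0.05 without rmMETRNL library 3, which was again the highest.

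Hsd11b1 encodes the enzyme that regenerates active glucocorticoid from its inert form inside the cell. The gene (ENSMUSG00000016194, chromosome 1, 193221634 to 193264075, minus strand) was low, at 1.55, 1.48 and 1.64 FPKM after vehicle and at 2.04, 2.38 and 2.20 FPKM after rmMETRNL. The groups did not overlap, and the gap of 0.402 FPKM exceeded the SDs of 0.0813 and 0.170 FPKM. In reads these are 100, 84 and 127 in vehicle libraries against 135, 159 and 139 in rmMETRNL libraries, with a counting error of up to 10.9%. The difference was 0.33 (SE 0.08) on the log2(FPKM + 1) scale and 0.49 on the scale of reads in voom, where no pseudocount of 1 FPKM shrinks it. The partner enzyme that inactivates the hormone, Hsd11b2, had 8 to 25 reads per library, below the level tested.

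Zbtb16 encodes PLZF, a transcription factor of innate-like T cells that glucocorticoids induce strongly in other tissues. The gene (ENSMUSG00000066687, chromosome 9, 48654297 to 48836222, minus strand) had 1, 1 and 8 reads in vehicle libraries and 3, 5 and 4 reads in rmMETRNL libraries, 10 against 12 in all. Vehicle library 3 held the most, and no difference was detectable at this depth. Markers of T and NK cells were low as well, with 1 of 8 at a mean of 1 FPKM or more and summed levels of 2.07 to 2.66 FPKM in vehicle and 2.95 to 3.19 FPKM in rmMETRNL libraries, led by Trbc2 and Nkg7.

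**Figure D3:**
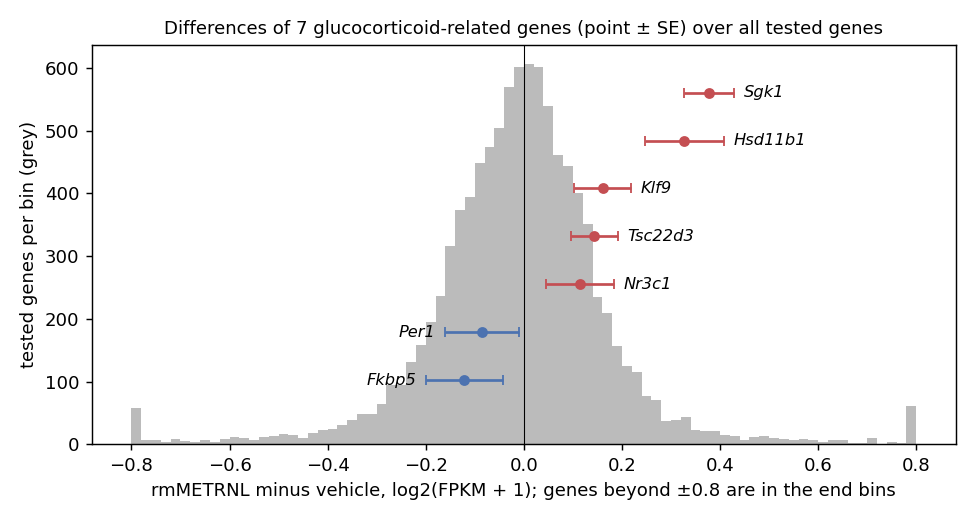
Difference between rmMETRNL and vehicle on the log2(FPKM + 1) scale for the 7 measurable genes (points with SE, red above 0 and blue below), over the distribution of all 9867 tested genes (grey, left axis; the heights of the points have no meaning). Sgk1 (0.38) and Hsd11b1 (0.33) lie in the right tail, and Klf9, Tsc22d3 and Nr3c1 nearer to the centre, with 11.4%, 13.3% and 18.5% of tested genes beyond them.

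By level per length in vehicle libraries, Sgk1 was the highest of the 8, at 2.63 times Tsc22d3, and its mean exceeded those of 94.3% of tested genes. Tsc22d3, Klf9, Per1 and Nr3c1 followed between 32.2 and 22.5 FPKM. Within this set Klf9 and Per1 were neighbours whose vehicle values overlapped, whereas in rmMETRNL libraries these 2 no longer overlapped and Per1 overlapped with Nr3c1. Fkbp5 came next at 2.93 FPKM, with Nr3c1 at 7.68 times its level. Hsd11b1 at 1.56 FPKM and Zbtb16 at 0.0366 FPKM closed the order, and with rmMETRNL the values of Fkbp5 and Hsd11b1 overlapped.

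Sgk1 was also set against each other gene within a library, which removes any scaling that a library's genes share. The ratio of Sgk1 to Tsc22d3 was 2.62, 2.41 and 2.87 in vehicle libraries and 2.98, 3.09 and 3.21 in rmMETRNL libraries 1 to 3. The ratio to Klf9 was 3.02, 2.87 and 3.07 against 3.44, 3.62 and 3.34. All rmMETRNL ratios lay above all vehicle ratios for Tsc22d3, Klf9, Per1, Nr3c1 and Fkbp5, so Sgk1 gained on each of these 5 genes. Against Hsd11b1 it did not, with ratios of 54.7, 54.8 and 53.6 in vehicle and 51.9, 46.1 and 52.1 in rmMETRNL libraries. These ratios use the contrast by which Sgk1 was chosen and are likewise a description.

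**Figure D4:**
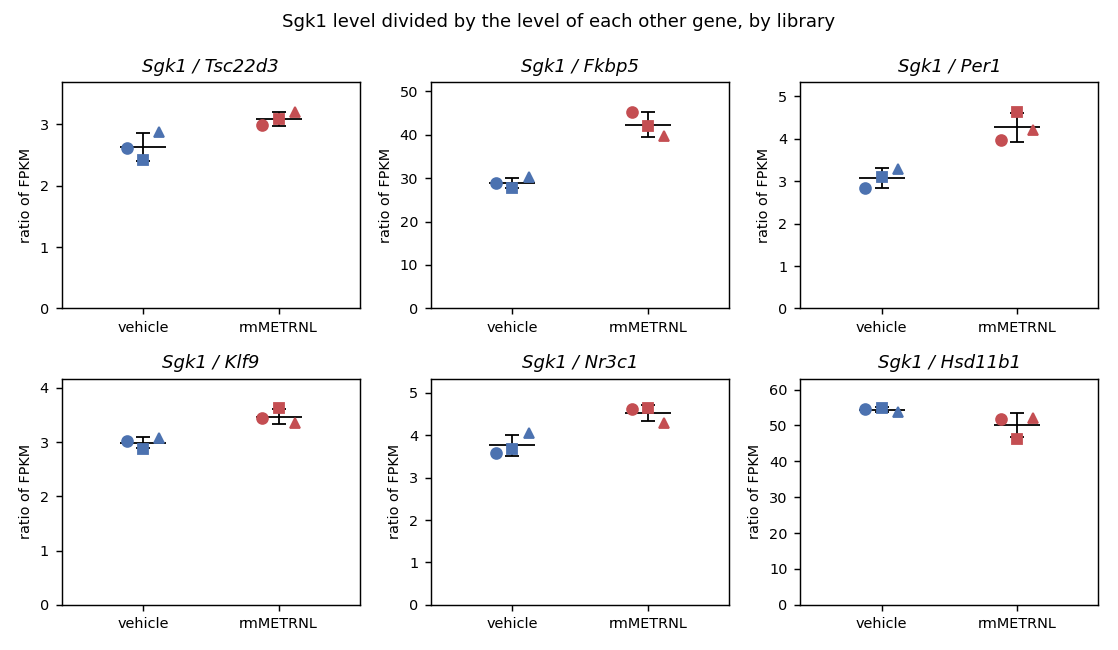
FPKM of Sgk1 divided by FPKM of each other measurable gene in the 3 vehicle (blue) and 3 rmMETRNL (red) libraries, with mean and SD in black and axes from 0. The ratio was higher in all rmMETRNL libraries for every gene shown except Hsd11b1, where it was lower.

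Library by library, rmMETRNL library 3 had the highest rmMETRNL value for 6 of the 7 measurable genes. The exception was Hsd11b1. The deviation of rmMETRNL library 3 from the gene mean was correlated with log2 gene length across genes (r = 0.203), while the other 5 libraries had r from -0.140 to 0.0534. With this trend removed from each library, the differences were 0.37 for Sgk1, 0.14 for Tsc22d3, 0.18 for Klf9 and 0.10 for Nr3c1. Neutrophil markers, led by S100a8 and S100a9, summed to 112 to 119 FPKM in vehicle and 123 to 131 FPKM in rmMETRNL libraries, with Elane at 0 and 3 of 8 at 1 FPKM or more. S100a9 was wholly higher with rmMETRNL, at 23.5, 24.8 and 24.9 FPKM in vehicle and 30.7, 37.1 and 36.6 FPKM in rmMETRNL libraries, whereas the groups of S100a8 overlapped, at 80.6 to 88.9 and 85.5 to 86.6 FPKM. The part of these markers in the differences was not tested. In bulk RNA, fewer cells of a type and less RNA per cell cannot be told apart.

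The rest of the pathway was read from lists chosen by function. An unadjusted p under 0.05 in limma, counted for the lists below, was reached by 1448 of all 9867 tested genes. Of 26 other glucocorticoid-induced genes, 22 were tested, 13 of them higher and 9 lower with rmMETRNL, and limma called none (8 had an unadjusted p under 0.05). Their median difference was 0.07, against -0.0056 over all tested genes, of which 48.4% were higher, and it was 0.03 without rmMETRNL library 3 and 0.10 without rmMETRNL library 2. The groups did not overlap for 7 genes that were higher and for 4 that were lower, against 10.9% and 10.6% of all tested genes. The metallothionein gene Mt1, the 1 gene of this list called by voom, was lower, at 443, 422 and 464 FPKM in vehicle and 388, 357 and 332 FPKM in rmMETRNL libraries. The metallothionein gene Mt2, named after its values were seen, had a higher mean with rmMETRNL, at 13.2 ± 4.45 against 18.5 ± 2.69 FPKM (mean ± SD, n = 3). Its groups overlapped, and an antisense gene covers 73.5% of its exon bases. Dusp1, a MAP kinase phosphatase gene, stood at 180, 170 and 183 FPKM after vehicle and 196, 209 and 221 FPKM after rmMETRNL. Nfkbia, the gene of the NF-kappaB inhibitor, stood at 340, 339 and 333 against 372, 374 and 376 FPKM, and Ddit4, an inhibitor of mTORC1, at 74.1, 82.9 and 75.9 against 84.9, 89.3 and 88.5 FPKM. These 3 genes were higher in every rmMETRNL library and did not pass limma or voom. Genes often induced by the hormone were thus on both sides. Txnip, Irak3, Tnfaip3 and Lpin1 were wholly higher as well, and Anxa1, Glul and Mertk wholly lower, all of them named after their values were seen. Txnip, overlapped by an antisense gene over 19.4% of its exon bases, had 4.42 ± 0.276 FPKM in vehicle and 6.10 ± 1.19 FPKM in rmMETRNL libraries. Zfp36, which encodes an mRNA decay factor, had 89.7 ± 5.30 and 89.3 ± 2.36 FPKM in vehicle and rmMETRNL libraries (mean ± SD, n = 3), and its groups overlapped. Pdk4, Cd163, Hif3a and Sesn1 were below the level tested.

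Of 14 inflammatory genes that glucocorticoids are known to repress, 14 were tested, and 9 were higher and 5 lower with rmMETRNL. The groups did not overlap for 5 of the 14, all higher, against 10.9% of all tested genes that were wholly higher. Limma called none (5 had an unadjusted p under 0.05), and voom called Tnf and Cxcl1, both higher. Csf2, the gene of a colony-stimulating factor, overlaps an antisense gene over 12% of its exon bases and stood at 28.9, 21.5 and 31.0 FPKM after vehicle and 38.6, 41.3 and 36.7 FPKM after rmMETRNL. The chemokine gene Cxcl2 stood at 4798, 5159 and 5296 FPKM against 5574, 6136 and 6619 FPKM. The list median was 0.09, and 0.04 after quantile normalization.

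The receptor's partners were split evenly. Of 16 chaperones, co-regulators and hormone-handling genes, 8 were higher and 8 lower, with a median of 0.0049 (-0.03 without rmMETRNL library 3 and 0.03 without rmMETRNL library 1) and none called by limma or voom (5 had an unadjusted p under 0.05). The genes of the cytosolic Hsp90 chaperones went opposite ways. Hsp90ab1 stood at 447, 444 and 448 FPKM after vehicle and 417, 411 and 389 FPKM after rmMETRNL, wholly lower. Hsp90aa1, named after its values were seen, stood at 199, 191 and 203 against 210, 231 and 224 FPKM, wholly higher. Stip1, whose product links Hsp70 to Hsp90, stood at 60.2, 62.8 and 58.9 against 69.2, 68.2 and 67.1 FPKM, wholly higher. Ncoa1, a co-activator gene, was low at 2.31 ± 0.201 and 2.95 ± 0.169 FPKM (mean ± SD, n = 3). H6pd, which supplies the cofactor that the enzyme of Hsd11b1 needs, had 5.74 ± 0.870 and 5.38 ± 0.387 FPKM, and its groups overlapped.

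In the kinase pathway around Sgk1, 12 of 13 genes were tested and all 12 had a positive difference, against 48.4% of all tested genes. For Rictor and Wnk1 this rests on rmMETRNL library 3, the only rmMETRNL library above their vehicle means. Rictor had a vehicle mean of 4.19 FPKM and stood at 4.14, 4.04 and 5.05 FPKM in rmMETRNL libraries 1 to 3. Wnk1 had a vehicle mean of 5.63 FPKM and stood at 5.35, 5.51 and 6.37 FPKM. The list median was 0.08. Limma and voom called none, and 1 gene had an unadjusted p under 0.05. The groups of 10 of the 12 overlapped, and 2 genes were wholly higher, against 10.9% of all tested genes. The median was 0.05 without rmMETRNL library 3 and 0.05 with the gene length trend removed. Ndrg1, whose product is a substrate used to read Sgk1 activity and whose gene also answers to hypoxia, stood at 71.8, 64.2 and 68.0 FPKM after vehicle and 76.6, 79.2 and 79.0 FPKM after rmMETRNL. The gene of the transcription factor Foxo3, which the kinase inactivates, stood at 10.2, 9.69 and 9.41 against 11.1, 10.3 and 10.5 FPKM. Gsk3b (10.5 ± 0.432 and 11.2 ± 0.852 FPKM), a kinase gene, and Nedd4l (3.79 ± 0.278 and 4.10 ± 0.175 FPKM), the gene of a ubiquitin ligase that Sgk1 restrains, overlapped between the groups. Of the related kinases, Sgk2 had 0 reads in every library and Sgk3 121 to 259 reads, at most 0.994 FPKM.

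Lists for other inducers of Sgk1 and for the clock were also counted, and limma and voom called none of their genes. Of 10 tested serum-induced early genes 6 were higher and 4 lower, with a median of 0.06 that ranged from 0.00088 without rmMETRNL library 3 and 0.0053 without vehicle library 2 to 0.11 without vehicle library 1 (2 had an unadjusted p under 0.05). The AP-1 gene Junb led this list, at 983, 874 and 876 FPKM after vehicle and 1036, 1032 and 1009 FPKM after rmMETRNL, while Nr4a1 was wholly lower. Of 6 osmotic stress genes 4 were higher, with a median of 0.10 that was 0.06 without rmMETRNL library 3 (1 had an unadjusted p under 0.05). The taurine transporter gene Slc6a6 stood at 42.7, 44.3 and 39.3 against 46.5, 46.4 and 53.0 FPKM. Its regulator Nfat5 stood at 12.7, 12.4 and 12.2 against 12.5, 12.5 and 15.5 FPKM, where rmMETRNL library 3 alone was high.

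Of 12 tested clock genes 10 were higher with rmMETRNL, against 48.4% of all tested genes, with a median of 0.12 (4 had an unadjusted p under 0.05). In this list 5 were wholly above and 1 wholly below vehicle, against 10.9% and 10.6% of all tested genes. The clock repressor gene Bhlhe41, overlapped by an antisense gene over 19.0% of its exon bases, had 16.6 ± 1.02 and 19.1 ± 0.645 FPKM (mean ± SD, n = 3), and the cryptochrome gene Cry2 had 1.70 ± 0.174 and 2.30 ± 0.209 FPKM. Nfil3, a repressor that opposes Tef at the same sites, was the gene wholly below, at 105 ± 4.85 and 93.6 ± 5.66 FPKM, while Tef had 1.03 ± 0.0144 and 1.37 ± 0.0317 FPKM. The other lower gene was Ciart, whose groups overlapped. Of the relatives of the 8 genes, 7 of 12 were tested, 3 higher and 4 lower, and none had groups that did not overlap. The list, led by Fkbp4, Per2, Tsc22d2 and Klf13, had a median of -0.01, which changed sign in 6 of 18 alternative settings.

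**Figure D5:**
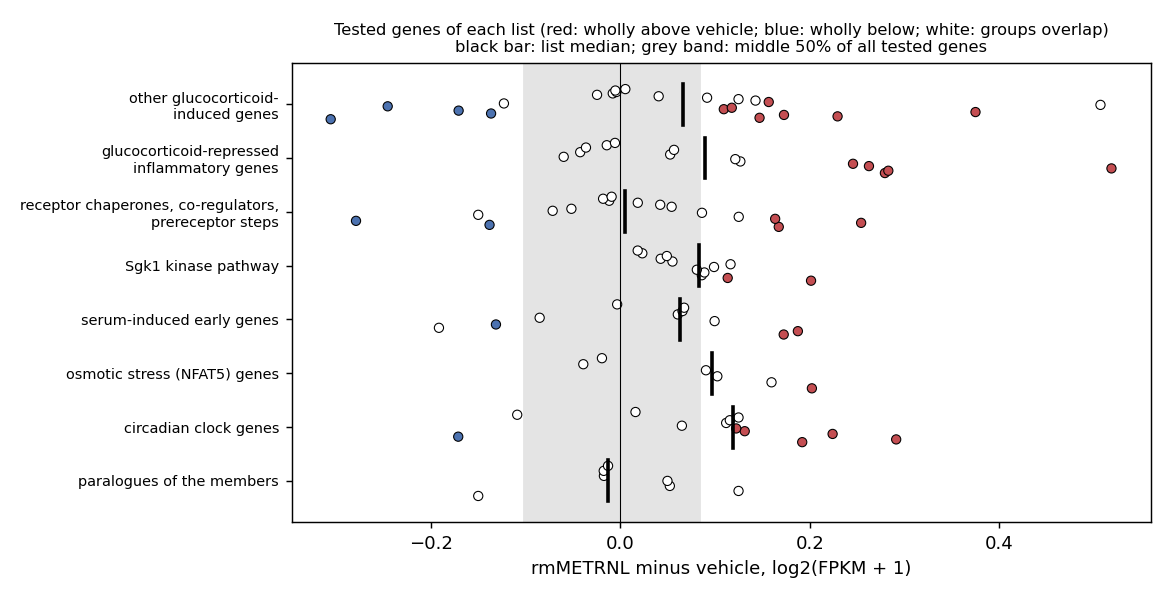
Difference between rmMETRNL and vehicle on the log2(FPKM + 1) scale for each tested gene of 8 lists (circles; red wholly above vehicle, blue wholly below, white overlapping), with the list median as a black bar and the middle 50% of all tested genes in grey. The 12 genes of the Sgk1 kinase pathway all lie right of 0, where 48.4% of all tested genes lie, and the glucocorticoid-induced genes lie on both sides. Rictor and Wnk1 lie right of 0 through rmMETRNL library 3 alone.

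The genes whose levels were most like Sgk1 over the 6 libraries were sought among 4985 named genes whose mean reached 5 FPKM, by Pearson's r of log2(FPKM + 1). The 5 highest were Rragc, a GTPase gene of amino acid sensing by mTORC1 (r = 0.992), Igsf6 (r = 0.991), the lysyl oxidase gene Lox (r = 0.991), the neutrophil attractant gene Cxcl5 (r = 0.989) and Cdc42se1 (r = 0.988). These r values are a description over 6 libraries that share the difference between groups and the library scaling. With the group means removed, r was 0.933 for Rragc, 0.928 for Lox, 0.869 for Igsf6, 0.841 for Cxcl5 and 0.776 for Cdc42se1. The 5 genes were picked by r over these same libraries, which raises these values too, so they are no separate support for the likeness. Rragc stood at 53.6 ± 2.61 FPKM after vehicle and 65.9 ± 2.28 FPKM after rmMETRNL, and Lox at 5.78 ± 0.520 and 8.17 ± 0.403 FPKM (mean ± SD, n = 3). The glucocorticoid-related genes that reached 5 FPKM ranked lower by the same measure, Klf9 at 284 (r = 0.889), Tsc22d3 at 654 (r = 0.790), Nr3c1 at 922 (r = 0.697) and Per1 at 3404 (r = -0.400). Hsd11b1 (mean 1.88 FPKM over the 6 libraries) and Fkbp5 (2.78 FPKM) were below that level and were not ranked. With the group means removed, r was -0.645 for Tsc22d3, 0.649 for Klf9, 0.543 for Nr3c1 and 0.196 for Per1. With 3 libraries per group, and rmMETRNL values of Tsc22d3 closer than counting error, nothing is read from these r values.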

How the data were processed

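RNA-seq libraries of 3 vehicle and 3 rmMETRNL samples were used. The authors deposited FPKM values with gene lengths, 1 column per library. Builds in the submitters' processing notes are GRCm38 and mm10. For aligner, counter, annotation release and strand setting, the sources used here give nothing. Multiplied by gene length, 100% of values in each library were whole multiples of a common unit (tolerance 0.05 reads), which gave the reads. Start and end matched GENCODE M21 for 98.3% of the 54409 genes matched by identifier, but not for Klf9 and Nr3c1, whose coordinates are those of the table. None of the 8 genes shares exon bases with another gene in M21, and at most 2.18% of the 30-base words of their longest transcript occur in another gene.

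Genes whose mean reached 1 FPKM were fitted with limma 3.58.1 (R 4.3.3, mean-variance trend, all 6 libraries) on log2(FPKM + 1). P-values are two-sided and adjusted by Benjamini-Hochberg over all tested genes, with calls at 0.05. The genes and lists were chosen with earlier results of these data known. Named beside the 8 genes are up to 4 genes of each list with the smallest p, those voom called, the 5 genes most like Sgk1 (predicted, Rik and pseudogene models left out), and the 2 most abundant markers of the other cell types described. Other genes are named for their role, because their groups did not overlap or because a single library set their direction, after their values were seen. Promoter windows are from RefSeq (GRCm38.p6). For 6 of the 8 genes a window was found. Alternatives were other pseudocounts (0.1 and 0.01), no filter, a minimum of 5 FPKM, TPM, median-of-ratios and quantile scaling, voom, no trend, the replicate block and leaving out each library. Removing the trend with gene length and keeping protein-coding genes only were added after seeing the data.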

Additional observations from a re-analysis of the deposited data

How the results depend on the processing

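The difference of Sgk1 kept its direction in all 18 alternative settings, between 0.35 and 0.41, the ends of which come from leaving out single libraries. Genes called over the table numbered 0 without any 1 library, with the other pseudocounts, a minimum of 5 FPKM, median-of-ratios or quantile scaling, no trend and the length trend removed, but 5 with no filter, 1 after rescaling to TPM, 61 with voom and 6 with protein-coding genes only. Genes of the pathway lists called numbered 0 in 17 settings and 3 with voom (Tnf, Cxcl1 and Mt1). Of the 8 genes, 4 were wholly above vehicle, or 4 to 5 without single libraries (Nr3c1 joins without vehicle library 1) and 3 at a minimum of 5 FPKM, which leaves out Hsd11b1. Fkbp5 was the 1 gene wholly below, and 0 were with a minimum of 5 FPKM, which leaves it out, with TPM and with quantile normalization. The difference of Hsd11b1 was 0.48 and 0.50 with pseudocounts of 0.1 and 0.01 FPKM. No measurable gene among the 8 changed sign in any setting run. Same-numbered libraries of the 2 groups did not deviate together (r across genes of -0.0212, 0.0074 and -0.0454), and no library correlated best with its own number. With the replicate block limma called 0 genes, and the difference of Sgk1 was 0.38. The depth limits Zbtb16, with 1 to 8 reads per library, and Hsd11b1 and Fkbp5, whose counting errors reach 10.9% and 5.38%. For a 1 kb gene, 10 reads are worth 0.549 to 0.748 FPKM.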
